A study of Mus musculus with 6 samples.

Results

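The core cardiac transcription factors examined here are 10 genes of the GATA, T-box, NK, HAND and MEF2 families: Nkx2-5, Gata4, Gata5, Gata6, Tbx5, Tbx20, Hand1, Hand2, Mef2a and Mef2c. They were taken by gene symbol from a table of 48709 genes, and all 10 were found and passed the filter on low values. The table holds polyA RNA sequencing of C57BL6/J mouse embryonic hearts in 6 libraries. Control libraries 1 to 3 came from littermates with Rbpms and Rbpms2 both floxed; each encodes an RNA-binding protein. Double knockout libraries 1 to 3 had these floxed alleles too, together with a Cre transgene labelled XML Cre that is meant to delete both genes in cardiomyocytes, the beating muscle cells. No group had Cre without the floxed alleles, so an effect of Cre and one of losing the genes cannot be told apart. The sources used here do not give the promoter of the transgene, the embryonic day or the number of hearts per library.

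These factors form the regulatory network that gives heart cells their identity. NKX2-5 is a homeodomain protein, the GATA factors are zinc finger proteins, TBX5 and TBX20 bind T-box elements, the HAND factors are basic helix-loop-helix proteins that bind E-boxes as dimers, and MEF2 factors are MADS-box proteins of muscle. They bind together at enhancers of heart genes and at each other's regulatory DNA, and several act in a dose-dependent way during chamber formation. They are not cardiomyocyte genes alone: endocardium and epicardium also express GATA factors, and HAND2 and TBX20 act in endocardial cells too.

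Values are normalised read counts as the authors deposited them, in which 1 unit stands for about 1 read. Libraries totalled 19770390 to 20215282 as deposited, from an estimated 18760280 to 21993003 reads. Each knockout library had less RNA of both targeted genes than each control library: Rbpms was at 670 to 721 against 3551 to 3956, and Rbpms2 at 1257 to 1676 against 2444 to 2716. Values cover whole genes, so RNA of other cell types and RNA left in cardiomyocytes cannot be told apart. Xist, from the inactive X chromosome, was at 6 in control 3 and 20 in knockout 3 and at 19501 to 25229 in the other libraries, a male pattern in both libraries numbered 3. The cardiomyocyte gene Myh6 was at 73150 or more in each library. Markers of liver and lung summed to 12 to 24. The deviation of a library from the mean of all 6 was related across genes to GC content, with Spearman's rho of 0.224 to 0.4 in controls and -0.586 to 0.127 in knockouts. That trend therefore moves with genotype, and the comparisons of the factors were repeated with it removed.

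Summed over the 10 factors, RNA did not separate the genotypes. The 10 values came to 26658, 28539 and 27189 in controls 1 to 3 and to 28459, 27712 and 27338 in knockouts 1 to 3, so the groups overlapped. Of the 10 factors, 1 passed the test in the lower direction, Hand1, and 0 passed in the higher direction (limma on log2(value + 1), threshold of adjusted p 0.05 over all 26747 tested genes). In the same test 2.55% of all tested genes were called lower, 2.31% higher and 4.86% in either direction. At an unadjusted p under 0.05, 4 members lay lower and 1 higher, where 18.7% of all tested genes reached that level in either direction. With voom weights 1 member was called lower and 0 higher, and without robust moderation 0 in either direction, where 1.31% of all tested genes were called. The median log2 fold change, knockout minus control, was -0.02 over the members and 0.02 over all tested genes. In absolute size the median was 0.21 over the members. Over the 7600 genes whose mean was 500 or more, which all 10 members pass, it was 0.12, and 8.34% of those genes were called.

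Libraries separated by genotype in 5 of the 10 factors without any overlap. Nkx2-5, Gata5, Tbx5 and Hand1 lay lower in every knockout library than in every control library, and Tbx20 lay higher. Such separation was seen in 21.7% of all tested genes (10.6% lower and 11.1% higher), and in 33.3% of genes whose mean was 500 or more. In the other 5 factors the genotypes overlapped. These 5 separations remained under TMM or median-ratio rescaling of the libraries. Once the trend was removed, 2 members lay lower without overlap (Tbx5 and Mef2a) and 1 higher (Gata6). The plot of values by library shows all 60 measurements.

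**Figure D1:**
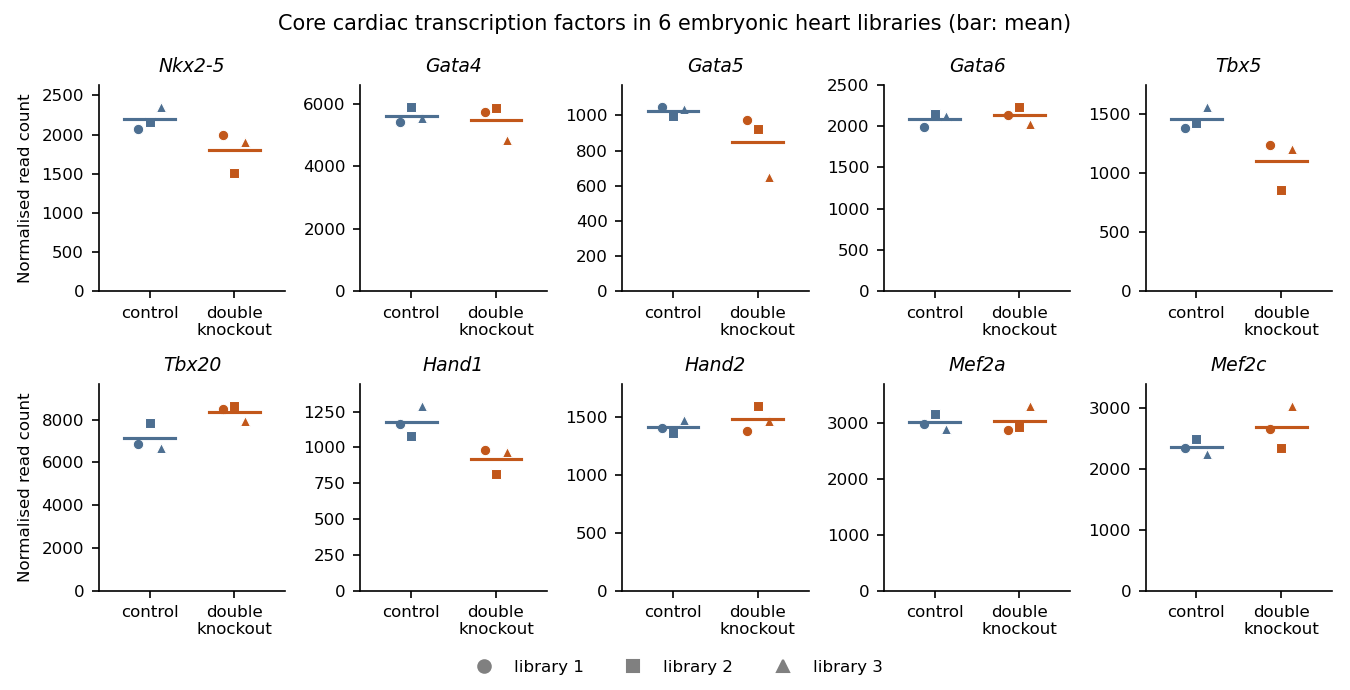
Normalised read count (y axis, from 0) of the 10 factors in control (blue) and double knockout (orange) libraries; each point is a library, its shape the library number, and the bar is the mean of 3. The orange points lie below all blue points for Nkx2-5, Gata5, Tbx5 and Hand1 and above them for Tbx20, and the knockout 2 point is the lowest for Nkx2-5, Tbx5 and Hand1.

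The DNA just upstream of these genes is shown for members that separated by genotype, as the stretch on which regulators of the network could act, and for Hand2, which did not separate. Windows from RefSeq start sites on GRCm38.p6 were taken for 6 of the 10 members, and none is shown for Hand1, Tbx5, Gata4 and Gata6. Each sequence runs 5′ to 3′ along the gene's strand from 250 to 51 bases before the start. The Nkx2-5 window lies inside the span that GENCODE gives the gene. Capitals mark matches on either strand to a GATA element (AGATAA and AGATAG, and also TGATAA and TGATAG), an NKX2-5 element (TNAAGTG) or a T-box element (AGGTGT).
Nkx2-5, chr17:26841616-26841815, minus strand: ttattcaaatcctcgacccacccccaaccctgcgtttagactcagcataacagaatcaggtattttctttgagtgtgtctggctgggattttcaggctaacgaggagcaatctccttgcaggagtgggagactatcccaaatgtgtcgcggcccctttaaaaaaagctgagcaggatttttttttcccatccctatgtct
Gata5, chr2:180334730-180334929, minus strand: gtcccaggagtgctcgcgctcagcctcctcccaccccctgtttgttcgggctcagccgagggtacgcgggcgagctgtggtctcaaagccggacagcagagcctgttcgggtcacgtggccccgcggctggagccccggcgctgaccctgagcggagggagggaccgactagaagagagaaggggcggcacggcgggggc
Tbx20, chr9:24774354-24774553, minus strand: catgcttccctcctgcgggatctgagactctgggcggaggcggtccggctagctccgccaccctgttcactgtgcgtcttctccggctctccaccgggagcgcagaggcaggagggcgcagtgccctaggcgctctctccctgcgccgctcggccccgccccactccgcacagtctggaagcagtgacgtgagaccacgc
Hand2, chr8:57320733-57320932, plus strand: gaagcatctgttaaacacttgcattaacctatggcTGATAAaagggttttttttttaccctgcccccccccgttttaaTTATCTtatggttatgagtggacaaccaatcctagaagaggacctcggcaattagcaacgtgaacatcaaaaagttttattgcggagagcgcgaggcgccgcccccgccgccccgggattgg
Only Hand2 among these 4 windows held a match, a pair of GATA elements, 1 on each strand. Windows of Mef2a and Mef2c, which overlapped between genotypes, were searched too and are not shown. Of these, 1 Mef2c window held a T-box match, and the others held none of the 3 elements. A GATA match was present in 23.1% of all 32851 RefSeq windows of this length, an NKX2-5 match in 8.36% and a T-box match in 9.86%. The E-box CANNTG, the element bound by HAND dimers, was matched once in the Nkx2-5 and Gata5 windows, 2 times in the Hand2 window and 0 times in the Tbx20 window, and in 59.0% of all windows. An E-box can overlap the other elements and is not in capitals. The windows differed in base composition, with 46.5% GC for Nkx2-5, 48.5% for Hand2, 69.5% for Tbx20 and 71.0% for Gata5.

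Per kilobase of exon, Gata4 was the most abundant of the factors and Mef2c the least. In controls Gata4 was at 1439 ± 66.3 per kilobase (mean ± SD, n = 3) and Nkx2-5 at 1278 ± 83.7, and their ranges did not overlap. Hand2 (599.9 ± 23.8), Tbx20 (593 ± 51.5) and Hand1 (590.2 ± 53.1) followed at levels per kilobase that overlapped each other. Gata6 (321 ± 13.3), Gata5 (313 ± 8.46) and Tbx5 (312 ± 19.98) formed a further overlapping set, above Mef2a (205 ± 9.37) and Mef2c (149.8 ± 7.93). In knockouts Gata4 and Nkx2-5 kept the top ranks, at 1404 ± 143 and 1048 ± 152 per kilobase. The HAND genes and Tbx20 stood in another order, Tbx20 (696 ± 31.5), Hand2 (628 ± 47.3) and Hand1 (461 ± 47.8). Lengths were unions of all annotated exons. With the longest transcript instead, Tbx20 (783 ± 67.996 in controls) stood above Hand1 (619 ± 55.7) and Hand2 (599.9 ± 23.8) without overlap, and Mef2a (544 ± 24.9) and Mef2c (375 ± 19.9) stood above Tbx5 (369.8 ± 23.7) and Gata5 (313 ± 8.46), with Mef2c and Tbx5 overlapping. The order below Nkx2-5 therefore depends on the length used.

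Nkx2-5, the homeobox factor of early cardiac progenitors and of conduction tissue (chromosome 17, 26838664 to 26845009, minus strand, mm10), was at 2078, 2157 and 2357 in controls 1 to 3 and at 1990, 1505 and 1912 in knockouts 1 to 3. The groups did not overlap, but the gap between control 1 and knockout 1 was narrow and knockout 2 lay far below the rest. The log2 fold change was -0.29 ± 0.10 (SE; 95% interval -0.51 to -0.08), a difference of -18.5%, and it missed the threshold (limma adjusted p = 0.109). Without knockout 2 the difference was -0.17.

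Among the GATA factors, Gata4 and Gata6 were level between genotypes and Gata5 lay lower. Gata4, which works with NKX2-5 and TBX5 at heart enhancers (chromosome 14, 63198922 to 63271692, minus strand), was at 5399, 5904 and 5553 in controls and at 5732, 5871 and 4843 in knockouts. Knockouts 1 and 2 fell within the range of the controls and knockout 3 was the lowest of all 6. Its log2 fold change was -0.04 ± 0.09 (95% interval -0.23 to 0.15; limma adjusted p = 0.847). Gata6, a close relative expressed in much the same heart cells (chromosome 18), was at 1989, 2150 and 2124 in controls and at 2138, 2235 and 2029 in knockouts. The ranges overlapped almost fully, and the log2 fold change was 0.03 ± 0.08 (95% interval -0.14 to 0.21; limma adjusted p = 0.878).

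Gata5, best known from endocardium and epicardium (chromosome 2, 180325133 to 180334699, minus strand), was at 1050, 996 and 1034 in controls and at 973, 924 and 651 in knockouts. Controls were tightly grouped, knockouts 1 and 2 lay just below them, and knockout 3 was the outlying library. The log2 fold change of -0.29 ± 0.12 (95% interval -0.56 to -0.03) did not pass (limma adjusted p = 0.214), and without knockout 3 it was -0.11. Beside it, markers of its usual cell types had few calls: of 12 endothelial and endocardial markers 0 were lower and 1 was higher in the limma test (Emcn, adjusted p = 0.0335), and of 11 epicardial markers 1 was higher (Krt19, adjusted p = 0.000859) and 1 lower (Lrrn4, adjusted p = 0.0309). Without robust moderation Emcn (limma adjusted p = 0.143) and Lrrn4 (0.130) did not pass, while Krt19 did (0.0308). The log2 fold change was below 0 for 6 of the 11 epicardial markers and for 2 of the 12 endothelial ones. In knockout 3 the endothelial sum, 30136, and the epicardial sum, 8853, lay within the range of the controls (25686 to 30880 and 8318 to 9978). The part of cell makeup in the Gata5 value was not tested.

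The T-box pair differed in direction. Tbx5, the Holt-Oram syndrome gene with high levels in atria and left ventricle (chromosome 5, 119832668 to 119885219, plus strand), was at 1385, 1425 and 1563 in controls and at 1238, 857 and 1204 in knockouts. All knockouts lay below all controls, with knockout 2 the lowest. Its log2 fold change had the greatest size of the 10 factors, -0.42 ± 0.12 (95% interval -0.68 to -0.16), a difference of -25.4%, and missed the threshold (limma adjusted p = 0.0607). Without knockout 2 it was -0.25. Tbx20, a T-box factor of myocardium and endocardium that both activates and represses (chromosome 9, 24718138 to 24774303, minus strand), was at 6856, 7824 and 6674 in controls and at 8493, 8642 and 7925 in knockouts. Each knockout lay above each control, although knockout 3 exceeded control 2 by little. The log2 fold change of 0.23 ± 0.09 (95% interval 0.05 to 0.41), 17.6% higher in the knockout, did not pass (limma adjusted p = 0.140).

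Of the HAND pair, Hand1 was called and Hand2 was not. Hand1, a factor of the left ventricle and outer curvature (chromosome 11, 57828705 to 57832818, minus strand), was at 1167, 1079 and 1290 in controls and at 985, 811 and 966 in knockouts. All knockouts lay below all controls and knockout 2 was the lowest. Hand1 fell, with a log2 fold change of -0.36 ± 0.10 (95% interval -0.56 to -0.15), a difference of -22.0% (limma adjusted p = 0.0403). That call was lost without robust moderation (adjusted p = 0.138), after removal of the trend (log2 fold change -0.23, adjusted p = 0.159), and on leaving out control 1 (adjusted p = 0.167), control 3 (0.269), knockout 1 (0.0526), knockout 2 (0.128) or knockout 3 (0.0998), or both libraries numbered 3 (0.443). The difference itself stayed between -0.42 and -0.23 in all 17 alternatives tried, and 9 of them kept the call. Of the fits that left out libraries, only that without control 2 kept it (limma adjusted p = 0.0418). The rest of the 9 used all 6 libraries and changed only scaling, pseudocount, filter, weights or block, so the 9 are no measure of stability. Hand2, the factor of the right ventricle, outflow tract and endocardium (chromosome 8, 57320983 to 57324633, plus strand), was at 1402, 1359 and 1470 in controls and at 1373, 1594 and 1463 in knockouts. The groups overlapped and the log2 fold change was 0.06 ± 0.09 (95% interval -0.12 to 0.25; limma adjusted p = 0.729). Hand2 shares 461 of its 2351 exonic bases with the antisense gene Hand2os1, which had 892 to 971 in controls and 766 to 912 in knockouts. Whether counting used the strand is not stated, so reads of the shared stretch cannot be assigned. Shorter antisense overlaps were present for Gata5 (258 bases with Gata5os), Gata6 (93 bases) and Mef2a (302 bases with Lysmd4).

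Mef2a and Mef2c, MADS-box factors that switch on contractile genes, overlapped between genotypes. Mef2a (chromosome 7, 67231163 to 67372858, minus strand) was at 2992, 3159 and 2886 in controls and at 2872, 2925 and 3308 in knockouts. Knockouts 1 and 2 lay within or just below the controls and knockout 3 above them, and the log2 fold change was 0.01 ± 0.09 (95% interval -0.17 to 0.19; limma adjusted p = 0.971). Mef2c, the MEF2 factor needed earliest in heart development (chromosome 13, 83504034 to 83667080, plus strand), was at 2340, 2486 and 2238 in controls and at 2665, 2348 and 3037 in knockouts. Knockout 2 lay among the controls while knockouts 1 and 3 lay above them, and the log2 fold change was 0.18 ± 0.10 (95% interval -0.02 to 0.38; limma adjusted p = 0.317). Without knockout 3 it was 0.09, and without knockout 2 it was 0.27. Both genes make several transcripts by alternative splicing, and these values are sums over all exons that carry no information on isoforms.

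Removing the trend with GC content and length made 6 of the 10 differences smaller in size and 4 larger. The GC content of the longest transcript was 67.1% for Nkx2-5, 57.0% for Hand1, 56.9% for Gata5 and 51.3% for Tbx5, the lower members. It was 42.3% for Tbx20, 42.0% for Mef2a and 40.8% for Mef2c. For Gata4, Hand2 and Gata6 it was 57.4%, 59.2% and 55.3%. After removal the log2 fold changes were -0.37 for Tbx5, -0.18 for Nkx2-5, -0.18 for Gata5 and 0.10 for Tbx20. Mef2c went to 0.04, Hand2 to 0.19 and Gata6 to 0.13. Gata4 changed sign to 0.08 and Mef2a to -0.11. None of the 10 members passed the threshold in that fit (limma adjusted p from 0.159 to 0.775), while 754 of all tested genes were higher and 828 lower. The part of the trend in the differences between genotypes was not tested further.

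**Figure D2:**
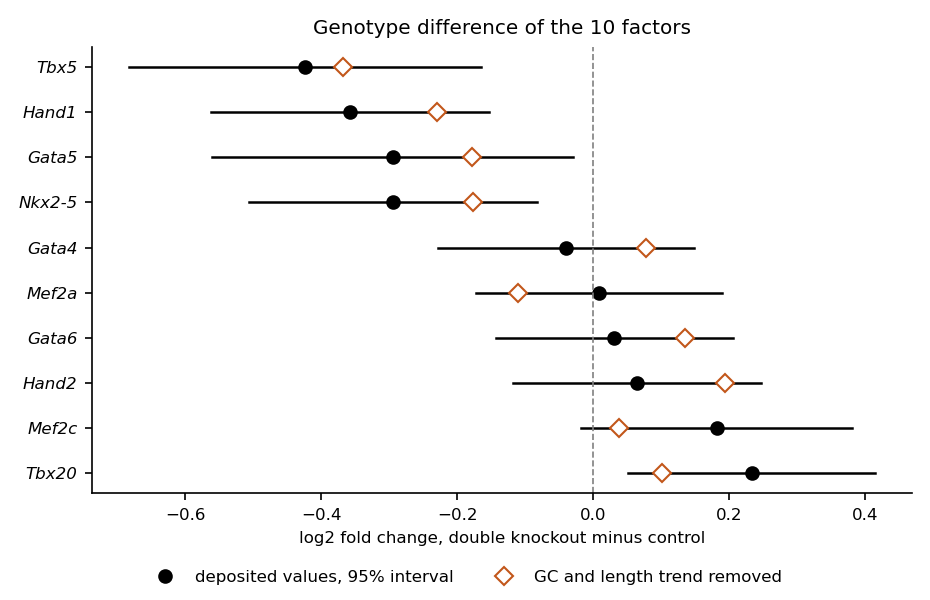
Log2 fold change, double knockout minus control (x axis), of the 10 factors in order of size; black points with lines are the limma estimates with 95% intervals and open diamonds the estimates after removal of the trend. Tbx5, Hand1, Gata5 and Nkx2-5 lie to the left of 0 under both, and the diamonds of Gata4 and Mef2a lie on the other side of 0 from their points.

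Ratios between 2 factors within a library do not depend on how libraries were scaled. For 7 pairs the ratio was computed in each library and compared between genotypes with an exact permutation test, two-sided, for which 0.1 is the smallest p that 3 against 3 libraries can give. The Tbx5 to Tbx20 ratio was 0.202, 0.182 and 0.234 in controls and 0.146, 0.0992 and 0.152 in knockouts. Every knockout ratio lay below every control ratio, a log2 difference of -0.66 (exact p = 0.1, adjusted p = 0.175 over the 7 pairs). The Hand1 to Hand2 ratio was 0.832, 0.794 and 0.878 in controls and 0.717, 0.509 and 0.66 in knockouts. Again the groups were apart, with a log2 difference of -0.42 (exact p = 0.1, adjusted p = 0.175), and of -0.28 without knockout 2. The Gata5 to Gata6 ratio was 0.528, 0.463 and 0.487 in controls and 0.455, 0.413 and 0.321 in knockouts, a difference of -0.33 without overlap (exact p = 0.1, adjusted p = 0.175). Without knockout 3, it was -0.18.

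The Mef2a to Mef2c ratio was nearly constant in controls, at 1.28, 1.27 and 1.29, and lower in knockouts, at 1.08, 1.25 and 1.09 (log2 difference -0.17, exact p = 0.1, adjusted p = 0.175). Gata4 to Gata6 was the steadiest pair between genotypes, at 2.71, 2.75 and 2.61 in controls and 2.68, 2.63 and 2.39 in knockouts (log2 difference -0.07, exact p = 0.3, adjusted p = 0.3). Gata5 to Gata4 (-0.26, exact p = 0.2, adjusted p = 0.28) and Nkx2-5 to Gata4 (-0.25, exact p = 0.3, adjusted p = 0.3) had overlapping groups. These were -0.16 without knockout 3 for Gata5 to Gata4 and -0.08 without knockout 2 for Nkx2-5 to Gata4. No pair could pass at this number of libraries. After removal of the trend, the 4 pairs without overlap still had none, at -0.47 for Tbx5 to Tbx20, -0.42 for Hand1 to Hand2, -0.31 for Gata5 to Gata6 and -0.15 for Mef2a to Mef2c. The ratios take the values of members whose separation is given above, so they are not separate evidence for it.

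**Figure D3:**
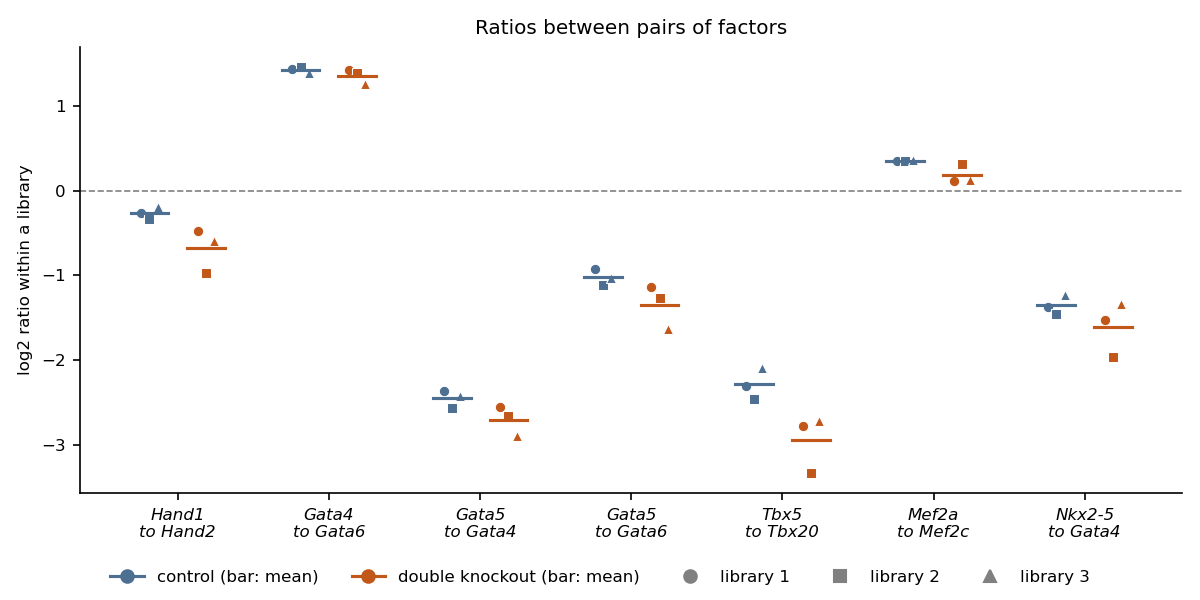
Log2 ratio of the normalised read counts of 2 factors within a library (y axis) for 7 pairs in control (blue) and double knockout (orange) libraries; points are libraries, shapes their numbers and bars means of 3. Orange points lie below all blue points for Hand1 to Hand2, Gata5 to Gata6, Tbx5 to Tbx20 and Mef2a to Mef2c.

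Nkx2-5, Tbx5 and Hand1 shared the ends of their order of libraries: control 3 was the highest and knockout 2 the lowest of all 6 for each. Knockout 2 also had the lowest summed cardiomyocyte markers, 793935, where the other knockouts had 845409 and 851104 and controls had 944493 to 985307. The highest of these sums was that of control 2, with 963209 in control 3. Of the 15 cardiomyocyte markers 1 was higher (Pln) and 3 lower (Myh6, Actc1 and Myl7). The log2 fold change was above 0 for 5 of them and below 0 for 10. Abundant genes weigh most in the sum. Of these, Myh6 and Actc1 lay lower in each knockout, while Myh7 overlapped (197393 to 231079 in controls, 189041 to 230962 in knockouts). Knockout 2 was the lowest library for Ttn (60679) and the highest for Myl2 (95579). Of 14 atrial markers 0 were higher and 5 lower in the limma test, and the log2 fold change was above 0 for 5 and below 0 for 9. Atrial sums were 75169 to 77789 in knockouts against 80982 to 99212 in controls. Most of that sum was Myl4 and Myl7, which are also in the cardiomyocyte list, while Gja5 lay higher in each knockout. Of 12 ventricular markers 1 was higher (Gja1) and 1 lower (Fhl2), with sums of 143431 to 164916 against 135934 to 155790. Fibroblast and valve markers summed to 72327 in knockout 2 and to 49484 to 60556 in the other libraries. Of these 10 markers 0 were called in either direction by limma. In bulk tissue, fewer cells of a type and less RNA per cell cannot be told apart, and the part of cell makeup in the values of Nkx2-5, Tbx5 and Hand1 was not tested.

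Markers of blood and of vessel walls were also summed. Erythroid sums ranged from 56223 to 156410 in controls and from 119093 to 167485 in knockouts, with 0 of 10 markers called by limma. Leukocyte markers summed to 1276 to 1363 in controls and 1362 to 1689 in knockouts, with 2 of 9 higher (Ptprc and Cx3cr1). Mural markers summed to 13998 to 14217 in controls and 9953 to 11979 in knockouts, where 1 of 8 was called, Cnn1, a calponin also present in embryonic cardiomyocytes. The lower mural sum rests on Cnn1, at 4962 to 5401 in controls and 1156 to 2072 in knockouts. The log2 fold change was above 0 for 3 of the 8 and below 0 for 5. Myh11, which defines smooth muscle, was at 11 to 26 in all libraries. Neural markers summed to 290 to 416, with 0 of 5 called.

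**Figure D4:**
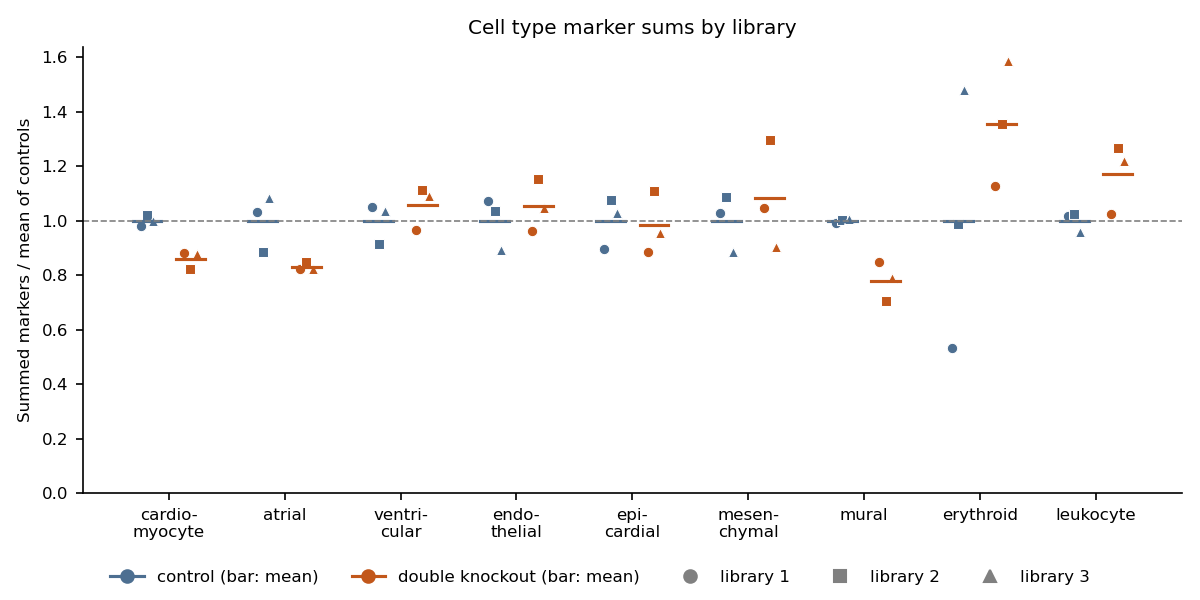
Sum of each cell type marker list per library, divided by the mean of the 3 controls (y axis, from 0), in control (blue) and double knockout (orange) libraries; points are libraries, shapes their numbers and bars means of 3. Cardiomyocyte, atrial and mural sums lie lower in all knockouts, the mural sum through Cnn1, and the erythroid sum is spread widely within controls.

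Close relatives of the factors were not called. Of 12 family paralogues 11 were tested, and 0 were higher and 0 lower by limma, and likewise with voom weights, while at an unadjusted p under 0.05 there were 2 lower and 0 higher. Their median log2 fold change was -0.27, against 0.02 over all tested genes. Genes near 0 enter that median: Tbx1, Nkx2-3 and Nkx2-6 averaged 0.333 to 1.67 per genotype, with log2 fold changes of -0.86 to -0.53. Tbx4 averaged 4.67 in controls and 5 in knockouts (0.11). The most abundant were Mef2d and Tbx18. Mef2d, the third MEF2 gene of muscle, was at 2930, 3009 and 2953 in controls and at 2817, 2082 and 2523 in knockouts. All knockouts lay lower and spread widely (log2 fold change -0.27 ± 0.10, limma adjusted p = 0.131). Without knockout 2 it was -0.15, and without knockout 1 it passed (-0.37, adjusted p = 0.0485). Tbx18, a T-box gene of epicardium and sinus horn, was at 1231, 1664 and 1526 in controls and at 1481, 1716 and 1625 in knockouts, overlapping (0.13 ± 0.10, limma adjusted p = 0.517). Tbx2, a repressor of chamber genes that TBX20 is known to hold down, was chosen after its values were seen. It was at 359, 409 and 401 in controls and at 296, 278 and 114 in knockouts, without overlap and with a wide spread (limma adjusted p = 0.376). The blood factor Gata1 was at 44 to 118 in controls and 47 to 135 in knockouts.

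Partners and modulators of the factors held a few calls in both directions. Of 36 tested, 1 was higher and 4 lower, where 2.31% of all tested genes were higher and 2.55% lower, and the median log2 fold change was -0.08. After removal of the trend 3 were higher and 3 lower. Srf, the MADS-box partner of NKX2-5 and GATA4 at contractile genes, had the lowest adjusted p. It was at 2474, 2962 and 2792 in controls and at 1844, 1612 and 1779 in knockouts, a wide gap with no overlap, and it fell by 0.65 on the log2 scale (SE 0.09, limma adjusted p = 0.0002). The call remained with each library left out (adjusted p up to 0.00591). Tcf4, an E protein that can dimerise with HAND factors, rose from 1119, 1272 and 998 to 1290, 1543 and 1602 (0.39 ± 0.10, limma adjusted p = 0.0350), a call that was lost after removal of the trend (0.24, adjusted p = 0.0878). Smyd1, a muscle methyltransferase needed for Hand2 expression in the mouse heart, fell from 11230, 11970 and 11903 to 9673, 9567 and 9607 (-0.28 ± 0.08, limma adjusted p = 0.0458).

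Hey1, a Notch target, was chosen after its values were seen because few partners were called. It was called lower (-0.43 ± 0.12, limma adjusted p = 0.0491), and that call was lost without robust moderation (adjusted p = 0.130). Hey2, of the same list and also chosen after its values were seen, lay the other way. It was at 1702 to 1840 in controls and 2065 to 2388 in knockouts, without passing (0.29 ± 0.09, limma adjusted p = 0.0630). The calls of Tcf4 and Smyd1 were each lost on leaving out control 1 or 3 or knockout 3, with adjusted p up to 0.259 and 0.211 over all 6 such fits. Tcf4 was also lost without knockout 2 (adjusted p = 0.0940), and Smyd1 without control 2 (0.109) or knockout 1 (0.0670). Without robust moderation neither Tcf4 (limma adjusted p = 0.149) nor Smyd1 (0.0862) passed. Other cofactors of the list were not called: Zfpm2, the FOG2 partner of GATA4, was at 561 to 647 in controls and 489 to 659 in knockouts (limma adjusted p = 0.891), and Myocd, myocardin, at 1757 to 1907 and 1357 to 2135 (limma adjusted p = 0.922). These 2 were chosen after their values were seen.

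Genes known as targets of the factors held calls in both directions. Of 32 tested, 2 were higher and 8 lower, with a median of -0.11. Over all tested genes 2.31% were higher and 2.55% lower, and 8.34% of genes whose mean was 500 or more were called in either direction. This list, like those of paralogues and partners, was chosen with earlier results of these data known, so the counts are no test of the lists. Myh6, the alpha myosin heavy chain, which GATA4, TBX5 and MEF2 act on, fell from 132314, 149354 and 137865 to 90131, 75234 and 73150 (log2 fold change -0.82 ± 0.09, limma adjusted p = 1.68e-05). Acta1, skeletal actin, fell from 5881, 6583 and 7019 to 1680, 1197 and 1049 (-2.34 ± 0.16, limma adjusted p = 3.39e-05). Both groups were widely separated for these genes. Actc1, cardiac actin, fell from 178253, 193011 and 191994 to 124462, 136201 and 132014 (-0.52 ± 0.08, limma adjusted p = 0.000647). The Actc1 call was lost without robust moderation (limma adjusted p = 0.0835), while those of Myh6 (0.0338) and Acta1 (0.00252) were kept. Xirp2, a muscle actin-binding protein gene under MEF2A control, rose from 28, 36 and 31 to 80, 72 and 132 (1.51 ± 0.23, limma adjusted p = 0.00041). In the textbook view Acta1, Actc1 and Myh6 are also targets of SRF. No binding was measured here, and the part of Srf in these values was not tested.

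**Figure D5:**
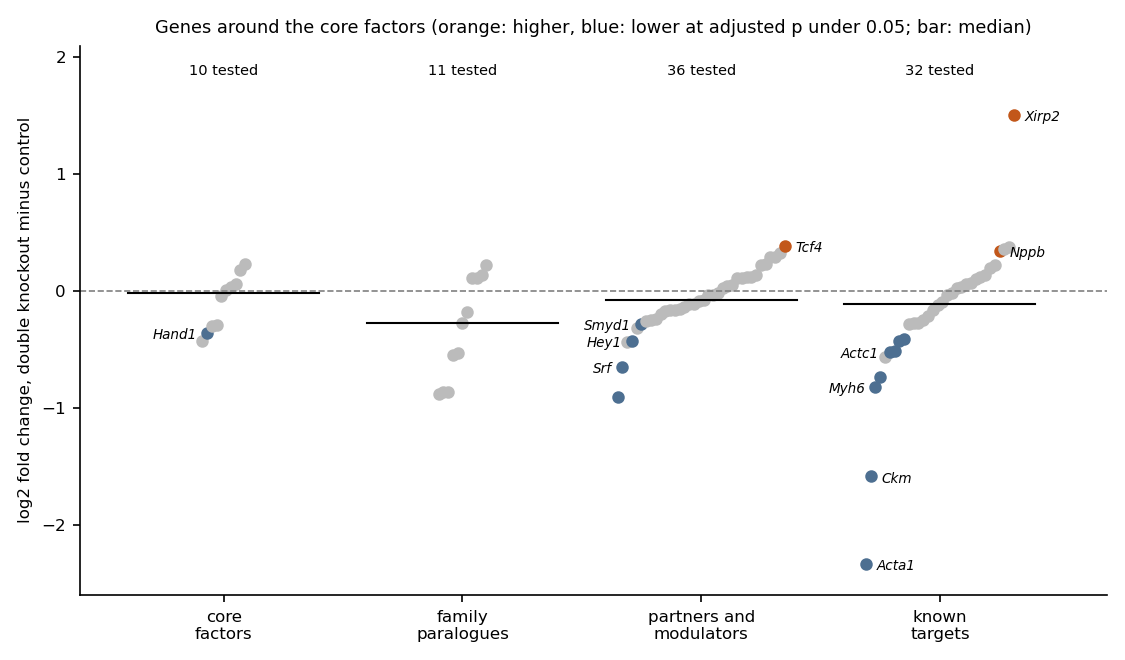
Log2 fold change, double knockout minus control (y axis), of each tested gene in 4 lists, sorted within a list; orange and blue points passed the limma test as higher and lower, grey points did not, and bars are medians. The core factors lie within -0.42 and 0.23, while targets reach from -2.34 (Acta1) to 1.51 (Xirp2).

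Nppa, Gja5 and Nppb were picked from the 32 known targets after their values were seen, and 1 was called. They do not stand for the list, in which 2 genes were higher and 8 lower. Nppa, atrial natriuretic peptide, was at 6647 to 8727 in controls and 6996 to 9847 in knockouts (limma adjusted p = 0.607), and Gja5, connexin 40, was at 4100 to 4319 and 4549 to 5211, higher in each knockout without passing (limma adjusted p = 0.195). Nppb, the ventricular peptide, was called higher (0.34 ± 0.10, limma adjusted p = 0.0450), a call that was lost without robust moderation (adjusted p = 0.149). The other lower calls of the list were Ckm, Myl7, Atp2a2, Des and Xirp1, with log2 fold changes of -1.59 to -0.41. Several of these targets are also cardiomyocyte or atrial markers counted above.

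Hand1, the only member called, had the 3 most similar profiles over the 6 libraries in Gskip (Pearson's r = 0.996 on log2(value + 1)), Gch1 (0.994) and Kcnab2 (0.989), out of 11481 candidate genes that code for protein and average 50 or more. These libraries carry the genotype difference, so r over 6 points describes a shared order and nothing more. Gskip, a GSK3 interaction protein, went from 360 ± 17.7 in controls to 300 ± 22.6 in knockouts and was not called (limma adjusted p = 0.183). Gch1, the first enzyme of tetrahydrobiopterin synthesis, fell from 158 ± 27 to 102 ± 15.04 (limma adjusted p = 0.0340), and Kcnab2, a potassium channel subunit, fell from 127 ± 21.6 to 82.7 ± 14.6 (limma adjusted p = 0.0461); both calls were lost without control 1, control 3 or any 1 knockout library, and that of Kcnab2 also without control 2 (adjusted p up to 0.241 and 0.295).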

How the data were processed

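RNA from embryonic mouse hearts was sequenced in 6 libraries. Per the labels' protocols, the input was 500 ng, the polyA kit kept strand, and reads were single, 75 bp long. Among the tools in the submitters' processing notes are STAR 2.4.2a, featureCounts 1.5.0 and DESeq2, with mm10 as build and no roles; no annotation or strand setting is stated. The deposited values are a score: read counts scaled by 1 factor per library by the authors and rounded. This was read from the spacing of the whole numbers, which also gave each library's read estimate. The main test was limma 3.58.1 (R 4.3.3) on log2(value + 1), with variance trend and robust moderation, over 26747 genes that reach a mean of 1 in a genotype, Benjamini-Hochberg adjusted, two-sided. Fold changes on this scale understate those of low genes. Libraries were grouped by their labels, 3 per genotype. No source ties each library to its own animal, and p-values then measure only the spread between these libraries. Coordinates, exon lengths and GC content came from GENCODE M21 (GRCm38, the assembly of mm10), which matched 99.3% of identifiers. The trend of each library with GC content and length was fitted by natural splines (5 degrees of freedom) to abundant coding genes and subtracted. TMM factors were computed directly from the published formula. The test was tried on simulated data. Alternatives changed the scaling, pseudocount, filter, moderation, weights, trend, block and libraries; the pair ratios and separations after trend removal were added after seeing the data. Genes named outside the members were the 4 called genes with the lowest adjusted p in each list, or the 2 most abundant where none was called, the 3 genes most like each called member, and those marked as chosen later. A gene so chosen is counted in its list and not reported here by name. The members and lists were chosen with earlier results of these data known.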

Additional observations from a re-analysis of the deposited data

How the results depend on the processing

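The counts rest on the moderation and on single libraries. Over all genes 618 were higher and 681 lower; the higher count was 963 with no filter, and the counts were 144 and 206 without robust moderation, 14 and 24 without both libraries numbered 3, and 186 to 608 and 234 to 739 with 1 library left out. For the members, 1 was lower; this was 3 with no filter (Nkx2-5, Tbx5 and Hand1), 2 with the replicate block, 0 without robust moderation, 0 with the GC and length trend removed, 0 without both libraries numbered 3, and 0 to 1 with 1 library left out. Members lower without overlap numbered 4, and 2 with the trend removed. Members higher without overlap numbered 1 to 2 with 1 library left out. Lower family paralogues numbered 0, but 2 with no filter, 1 with the replicate block and 0 to 2 with 1 library left out. Partners numbered 1 higher and 4 lower; the higher count was 3 with no filter, and the counts were 3 and 3 with the trend removed, 0 and 1 without robust moderation and 0 and 0 without both libraries numbered 3, and 0 to 2 and 1 to 5 with 1 library left out. Targets numbered 2 higher and 8 lower; the higher count was 1 with TMM rescaling, a mean of at least 10, or the replicate block, and 4 with no filter. Targets numbered 1 and 2 without robust moderation, 0 and 1 without both libraries numbered 3, and 1 to 3 and 5 to 9 with 1 library left out.

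Signs changed only in members near 0: Gata4 (0.0785 with the trend removed, 0.0391 without both libraries numbered 3, and -0.0917 to 0.0471 with 1 library left out), Gata6 (-0.00312 without control 1, -0.00254 without knockout 2, and up to 0.0672 with 1 library left out) and Mef2a (-0.111 with the trend removed, -0.085 without both libraries numbered 3, and -0.0546 to 0.0473 with 1 library left out). The Hand1 call was also lost without both libraries numbered 3 (adjusted p = 0.443). Tbx5 passed with no filter (adjusted p = 0.000858), with the replicate block (0.0159) and without knockout 1 (0.0439), and Nkx2-5 with no filter (0.0335). The fit with no filter gave some genes far smaller adjusted p at an unchanged fold change (limma, Acta1 1.1e-122 against 3.39e-05). Passing in that fit is therefore weak support for a call. Smyd1 did not pass with the replicate block (0.157). The causes were not tested. For replicate numbers 1 and 2, deviations of same-numbered libraries correlated at 0.0517 and 0.0697, and control 1 correlated best with knockout 2 (0.171). That is no sign of a pairing by these numbers, but with 3 libraries a genotype it cannot exclude one. The libraries numbered 3 correlated at 0.329, above every other combination of a control and a knockout. Both libraries numbered 3 share the male pattern. With 3 libraries a genotype, the 95% intervals of the members span -0.68 to 0.41 on the log2 scale.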
